A study of Mus musculus with 12 samples.

Results

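The genes described here encode the nuclear-encoded subunits of the mitochondrial respiratory chain and of ATP synthase in mouse kidney. Members were taken from the expression table by symbol alone: names that start with Ndufa, Ndufb, Ndufc, Ndufs, Ndufv, Uqcr, Atp5, Cox4i, Cox5, Cox6, Cox7 or Cox8, together with Sdha, Sdhb, Sdhc, Sdhd and Cyc1, and without the Ndufaf assembly factors and pseudogene symbols. This gave 90 of the 25553 genes in the table. By complex they were 41 genes of complex I, 4 of complex II, 9 of complex III, 19 of complex IV (Ndufa4 and Ndufa4l2 included) and 17 of ATP synthase. FPKM, the unit of the table, is a fragment number corrected for gene length and sequencing depth. Of the members, 87 reached FPKM 1 in 3 or more libraries and entered the tests. Cox7b2, Cox8b and Ndufb11b did not reach it, and Cox8c had no row.

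RNA was sequenced from whole kidneys of wild-type mice in 4 groups of 3. Renal ischemia-reperfusion injury (RIRI) was 45 min of clamping of both renal pedicles followed by 12 h of reperfusion, and the other mice had a sham operation. Hypoxic preconditioning was given before surgery in a chamber at 8% oxygen, in sessions of 2, then 4, then 8 h over 3 days. The groups were normoxic sham (NS), normoxic RIRI (NR), preconditioned sham (HS) and preconditioned RIRI (HR). Strain, sex and age are not given in the labels. Every library carried the same batch number. Reads recovered from the FPKM steps came to between 32783849 and 35353330 per library, so depth differed little. A tested member had at least 10 recovered reads in every library.

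Complex I passes electrons from NADH to ubiquinone, and complex II, which is also succinate dehydrogenase of the citric acid cycle, passes them to ubiquinone from succinate. Complex III hands them to cytochrome c and complex IV to oxygen. Complexes I, III and IV pump protons, and ATP synthase uses the resulting gradient to make ATP. Most subunits are encoded in the nucleus and a few catalytic ones in the mitochondrial genome, so that each complex other than complex II is built from both. The proximal tubule and the thick ascending limb are rich in mitochondria because they reabsorb solutes, which needs ATP.

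RefSeq positions on GRCm38, the assembly behind mm10, were found for 89 of the 90 members, on 19 different chromosomes, and 71 had an entry in the RefSeq promoter table. Known regulators of such genes include nuclear respiratory factor 1 (NRF1), GA-binding protein (an ETS factor), estrogen-related receptors (ERR), YY1 and Sp1, and short forms of their motifs were searched on both strands from 250 bases before to 50 after each start. The letters GCATGCGC of NRF1 were in 10 of the 71 member windows (14.08%), against 3.049% of the windows of all 27025 genes in the table and 5.686% of the 9778 genes tested for expression. A longer palindromic NRF1 form, which contains the short one, was in 5 member windows (7.042%, against 1.073% of all and 2.189% of tested genes). AAGATGGC of YY1 was in 10 (14.08%, against 3.19% and 5.339%), and CCGGAAG of ETS factors in 17 (23.94%, against 9.928% and 19.66%). AAGGTCA of ERR was in 8 (11.27%, against 5.38% and 4.162%), its longer form TCAAGGTCA in 2 (2.817%, against 0.4662% and 0.3273%), and GGGGCGGGG of Sp1 in 11 (15.49%, against 12.91% and 24.5%). The motif shares are descriptions of letters in a window and were not tested.

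Upstream stretches of 3 genes are printed because of the genes' change after RIRI and because the stretches differ in these letters. On the log2(FPKM + 1) scale the genes had the most negative change of complex II (Sdhb), of ATP synthase (Atp5k) and of complex IV (Cox7a1). Each is the 250 bases before the RefSeq start on GRCm38.p6, read 5′ to 3′ on the gene's strand, with motif matches in capitals. Sdhb is at chr4:140961021-140961270 on the plus strand, Atp5k at chr5:108434400-108434649 on the minus strand and Cox7a1 at chr7:30183921-30184170 on the plus strand. Capitals mark an Sp1 match on the opposite strand and a short NRF1 match in Sdhb, and the palindromic long NRF1 form in Atp5k. The window searched for motifs also ran past the start, and that part is not printed. In the full window Sdhb and Atp5k also had the ETS letters CCGGAAG, and Atp5k the short ERR letters AAGGTCA. These matches do not lie wholly within the printed stretches and are therefore not in capitals. The Cox7a1 stretch holds none of the motifs searched.
Sdhb: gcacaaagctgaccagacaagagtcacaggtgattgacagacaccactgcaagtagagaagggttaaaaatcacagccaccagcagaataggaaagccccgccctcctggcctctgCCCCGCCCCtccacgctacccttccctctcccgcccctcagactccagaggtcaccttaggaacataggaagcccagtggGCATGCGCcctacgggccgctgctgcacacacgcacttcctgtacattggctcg
Atp5k: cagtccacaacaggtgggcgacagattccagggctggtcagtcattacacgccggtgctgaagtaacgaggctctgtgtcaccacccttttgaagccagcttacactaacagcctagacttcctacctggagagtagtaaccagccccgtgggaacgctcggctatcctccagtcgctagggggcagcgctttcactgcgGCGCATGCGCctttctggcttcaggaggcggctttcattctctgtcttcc
Cox7a1: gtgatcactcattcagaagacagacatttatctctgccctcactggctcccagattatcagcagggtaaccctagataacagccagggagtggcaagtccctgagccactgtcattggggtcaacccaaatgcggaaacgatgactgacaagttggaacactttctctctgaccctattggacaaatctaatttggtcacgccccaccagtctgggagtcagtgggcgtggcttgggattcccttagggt

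In normoxic sham kidneys the median member had a mean of 247 FPKM, a scale that is per length and so allows genes to be set side by side. A mean above 100 FPKM was found for 73 of the 87 tested members, and 7 were below 10. Atp5b, the catalytic beta subunit of ATP synthase, was highest at 1803 FPKM. All members together made up 3.58% to 6.12% of the FPKM total of a library. Their lowest shares were those of the 3 normoxic RIRI libraries.

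What ischemia and reperfusion did to these transcripts without preconditioning was read from NR minus NS. After RIRI, 83 of 87 tested members were lower (limma adjusted p of at most 0.00925 for each) and 0 were higher. Among all 12357 genes tested, 30.1% were lower and 41.6% higher. The median log2 fold change of the members was -0.64, against 0.10 for all genes tested. In 83 members the 3 RIRI and 3 sham values did not overlap, as was so for 74.3% of all genes tested. Because whole kidney was measured, fewer cells that carry these transcripts and less RNA per cell cannot be told apart. The p-values rest on the spread between samples within the 4 groups, pooled in 1 estimate per gene and moderated over genes. That spread may be partly technical.

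**Figure D1:**
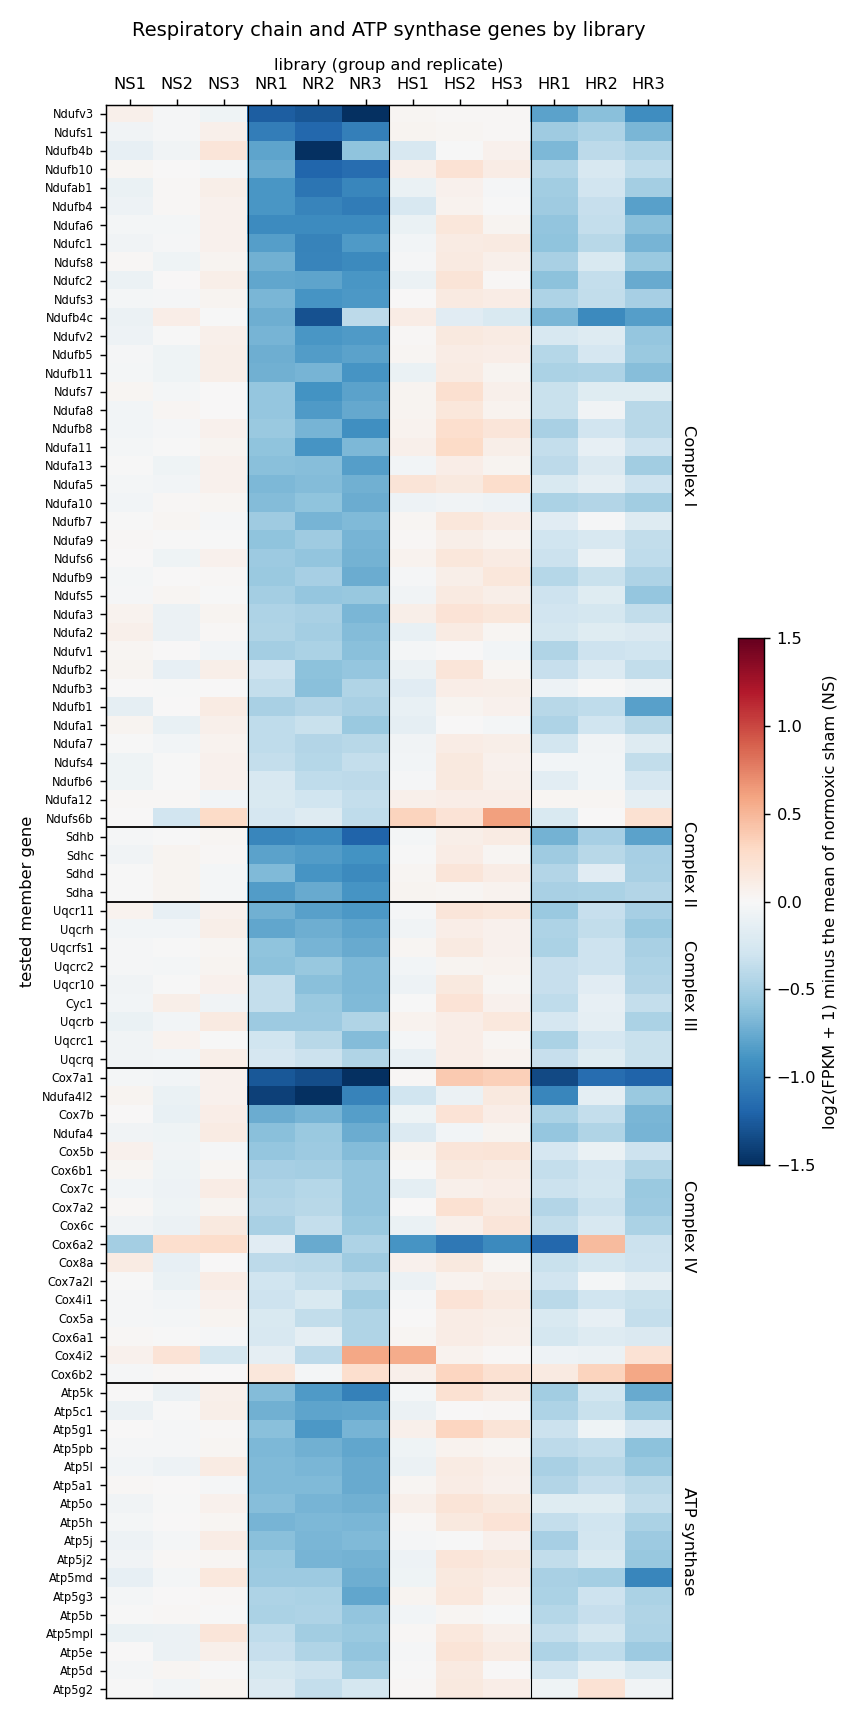
Each row is a tested member (1 member of complex I is not drawn) and each column a library; colour is log2(FPKM + 1) minus the mean of the 3 normoxic sham (NS) libraries, from -1.5 (blue) to 1.5 (red), with members grouped by complex and ordered by NR minus NS. The 3 normoxic RIRI (NR) columns are blue for nearly all rows, the preconditioned RIRI (HR) columns are paler, and Cox6b2, Cox4i2 and Cox6a2 differ from this.

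Complex I was lower for 39 of its 40 tested genes, with a median log2 fold change of -0.69. Ndufs1, the largest core subunit, which carries iron-sulfur clusters that lead electrons away from NADH, lies on chromosome 1 from 63143592 to 63176822. It was at 75.6, 77.5 and 82.6 FPKM in normoxic sham and at 37.8, 34.3 and 38.0 FPKM in normoxic RIRI. The RIRI values did not reach the lowest sham value, and the log2 fold change was -1.08 ± 0.07 (SE, n = 3 per group, limma adjusted p = 1.24e-07). Ndufv1, the flavoprotein that binds NADH, went from 242, 237 and 230 FPKM to 166, 170 and 153 FPKM, a smaller log2 fold change of -0.54 ± 0.07 (limma adjusted p = 1.66e-05). Ndufv3, an accessory subunit of the same flavoprotein part on chromosome 17 from 31520115 to 31531326, went from 128, 120 and 117 FPKM to 50.8, 49.2 and 41.6 FPKM. That was the most negative log2 fold change of complex I, -1.35 ± 0.09 (limma adjusted p = 1.3e-07), and left 38.84% of the sham mean.

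The 7 nuclear core subunits of complex I were all lower, with a median of -0.81, and 32 of the 33 accessory subunits were lower, with a median of -0.67. Core subunits hold the flavin and the iron-sulfur clusters and are shared with bacteria, whereas accessory subunits surround them. Ndufb10, an accessory subunit of the membrane arm, fell from 312, 305 and 298 FPKM to 180, 133 and 137 FPKM. Ndufab1, the mitochondrial acyl carrier protein, fell from 52.9, 57.7 and 60.5 FPKM to 30.7, 26.1 and 28.5 FPKM. Both were thereby at 49.34% and 49.85% of their sham means. Ndufa12 kept a larger share, 81.44%, with 128, 129 and 123 FPKM in sham and 108, 103 and 98.8 FPKM in RIRI (log2 fold change -0.29 ± 0.06, limma adjusted p = 0.00148). Ndufs6b, at 2.82 to 4.73 FPKM in sham and 2.59 to 3.09 FPKM in RIRI, was not called (log2 fold change -0.28 ± 0.16, limma adjusted p = 0.135) and its groups overlapped. Without normoxic sham replicate 2 it was called (-0.42). Ndufs6b, Ndufb4b and Ndufb4c are near-copies of Ndufs6 and Ndufb4, and their low values are uncertain because how reads shared between copies were counted is not given.

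Complex II was lower for all 4 genes, with a median log2 fold change of -0.84. Sdhb, the iron-sulfur subunit, was at 362, 363 and 372 FPKM in normoxic sham and at 185, 189 and 158 FPKM in normoxic RIRI (log2 fold change -1.04 ± 0.09, limma adjusted p = 1.01e-06). Sdha, the flavoprotein that oxidises succinate, was at 309, 322 and 305 FPKM against 174, 185 and 168 FPKM (log2 fold change -0.82 ± 0.06, limma adjusted p = 1.72e-07). For the membrane anchors Sdhc and Sdhd the RIRI means were 55.54% and 56.16% of sham. The RIRI and sham values did not overlap for any of the 4 genes, and the summed FPKM of complex II was 53.81% of sham, from 1238 ± 20.2 to 666 ± 40.1 (SD, n = 3).

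All 9 genes of complex III were lower, with a median of -0.55. Uqcrfs1, the Rieske iron-sulfur protein, was at 294, 297 and 303 FPKM in sham and at 197, 183 and 176 FPKM in RIRI (log2 fold change -0.69 ± 0.07, limma adjusted p = 3.07e-06). Cyc1, cytochrome c1, was at 280, 308 and 280 FPKM against 225, 196 and 182 FPKM (log2 fold change -0.53 ± 0.10, limma adjusted p = 0.000419). Uqcrc1, a core protein of the matrix side, was at 266, 287 and 276 FPKM against 225, 207 and 175 FPKM (log2 fold change -0.45 ± 0.09, limma adjusted p = 0.000854). The groups did not overlap for any of the 3 genes. Uqcr11, a small subunit, had the most negative value of the complex, -0.80 ± 0.08, and Uqcrq, the ubiquinone-binding small subunit, the least, -0.34 ± 0.08.

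Complex IV, cytochrome c oxidase, was lower for 14 of 17 tested genes, with a median of -0.47. Several of its subunits exist as isoforms with tissue preferences, and the abundant isoform of each pair fell. Cox4i1, the general form of subunit 4, was at 1047, 1028 and 1103 FPKM in sham and at 854, 903 and 735 FPKM in RIRI (log2 fold change -0.36 ± 0.09, limma adjusted p = 0.00285). Its hypoxia-linked counterpart Cox4i2 was near the filter, at 0.54 to 1.13 FPKM in sham and 0.41 to 1.77 FPKM in RIRI, with overlapping groups (log2 fold change 0.02 ± 0.23, limma adjusted p = 0.95). Cox6a1, the liver form of subunit 6a, was at 1041, 1026 and 1012 FPKM against 867, 938 and 748 FPKM, a log2 fold change of -0.28 ± 0.08 (limma adjusted p = 0.00725). Cox6a2, the heart and muscle form, was at 1.84, 3.84 and 3.87 FPKM against 2.60, 1.41 and 1.95 FPKM and was not called (limma adjusted p = 0.238).

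Cox6b1, which bridges the dimer of complex IV, fell from 897, 843 and 897 FPKM to 623, 618 and 581 FPKM (log2 fold change -0.53 ± 0.07, limma adjusted p = 2.53e-05). Its testis form Cox6b2 was at 5.57, 5.73 and 5.68 FPKM in sham and at 6.49, 5.52 and 6.95 FPKM in RIRI, the highest log2 fold change of all members and not called (0.13 ± 0.11, limma adjusted p = 0.319). Cox5a, which has a single form, was at 76.9, 76.4 and 80.4 FPKM against 66.2, 59.9 and 56.6 FPKM (log2 fold change -0.35 ± 0.08, limma adjusted p = 0.00169). For subunits 4, 6a and 6b the called gene of the pair was thus the abundant one, and the uncalled one was below 10 FPKM. The call of Cox6a1 was lost after quantile normalization (-0.15). Cox7b fell by 0.76 on the log2 scale, and Cox8a by 0.44. Their counterparts Cox7b2, listed at 0 in 11 of 12 libraries, and Cox8b, at 2.93 FPKM or less in every library, were not tested.

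Cox7a1 is the heart and muscle form of subunit 7a, on chromosome 7 from 30184171 to 30186030. On the FPKM + 1 scale it had the most negative log2 fold change of all members. Ndufa4l2, which was low in level, kept a smaller share of its sham mean, 24.71%. Cox7a1 was at 23.3, 23.0 and 24.8 FPKM in normoxic sham and at 9.19, 8.84 and 6.93 FPKM in normoxic RIRI, 35.11% of the sham mean (log2 fold change -1.41 ± 0.12, limma adjusted p = 6.09e-07). The general form Cox7a2 was at 391, 368 and 397 FPKM against 284, 289 and 256 FPKM, or 71.67% of sham. Cox7a2l, a related protein that joins complexes III and IV into supercomplexes, was at 77.79% of sham. All 3 were called lower. Of 6 skeletal muscle markers set beside Cox7a1, 5 had a row, their sum was at most 1.40 FPKM in any library, and the 1 that was tested, Mylpf, a muscle myosin light chain, was also lower in RIRI (log2 fold change -0.50 ± 0.12). Ucp1, the defining gene of brown fat, which also uses Cox7a1, was at 1.89 FPKM or less. Its sham values were 0.05, 1.5 and 1.86 FPKM. The summed adipose markers, mostly Fabp4, were 41.7 to 68.8 FPKM in sham and 98.7 to 128 FPKM in RIRI. Of the 4 adipose markers tested, Fabp4 was called higher in normoxic RIRI, whereas Ucp1 and Cidea were called lower, as Cox7a1 was. With limma voom on recovered reads 1 was higher and 0 were lower. The part of muscle and fat tissue in the Cox7a1 result was not tested.

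Ndufa4, once counted with complex I and now placed in complex IV, fell from 916, 911 and 1039 FPKM to 616, 647 and 570 FPKM (log2 fold change -0.64 ± 0.09, limma adjusted p = 5.38e-05). Its paralog Ndufa4l2, a known target of hypoxia-inducible factor 1, was far lower in level, at 3.78, 3.33 and 3.86 FPKM in sham and 0.77, 0.62 and 1.32 FPKM in RIRI. The groups were apart, and the RIRI mean was 24.71% of sham (log2 fold change on the FPKM + 1 scale -1.31 ± 0.20, limma adjusted p = 8.08e-05). Reads that are shared between such paralogs could have been split, since the counting is not described.

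All 17 genes of ATP synthase were lower, with a median of -0.66. The alpha and beta subunits form the catalytic F1 head. Atp5a1 (alpha) was at 990, 983 and 969 FPKM in sham and at 620, 619 and 578 FPKM in RIRI, a log2 fold change of -0.70 ± 0.06 (limma adjusted p = 7.49e-07). Atp5b (beta) was at 1790, 1826 and 1794 FPKM against 1297, 1310 and 1196 FPKM, a log2 fold change of -0.51 ± 0.06 (limma adjusted p = 1.28e-05). By region, the median was -0.51 for 5 genes of F1, -0.69 for 4 of the peripheral stalk and -0.63 for 8 of the membrane part. The 5 of F1 were Atp5a1, Atp5b, Atp5c1, Atp5d and Atp5e, so more than the catalytic head. Atp5k, subunit e, which takes part in dimer formation, was lowest of the complex at -0.84 ± 0.13, from 247, 232 and 261 FPKM to 156, 136 and 122 FPKM. The 3 genes for subunit c encode the same mature protein of the rotor ring. Of these, Atp5g1 was at 60.29%, Atp5g3 at 67.48% and Atp5g2 at 82.39% of sham, and Atp5g2 had the least negative log2 fold change of ATP synthase (-0.28 ± 0.08, limma adjusted p = 0.00925).

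**Figure D2:**
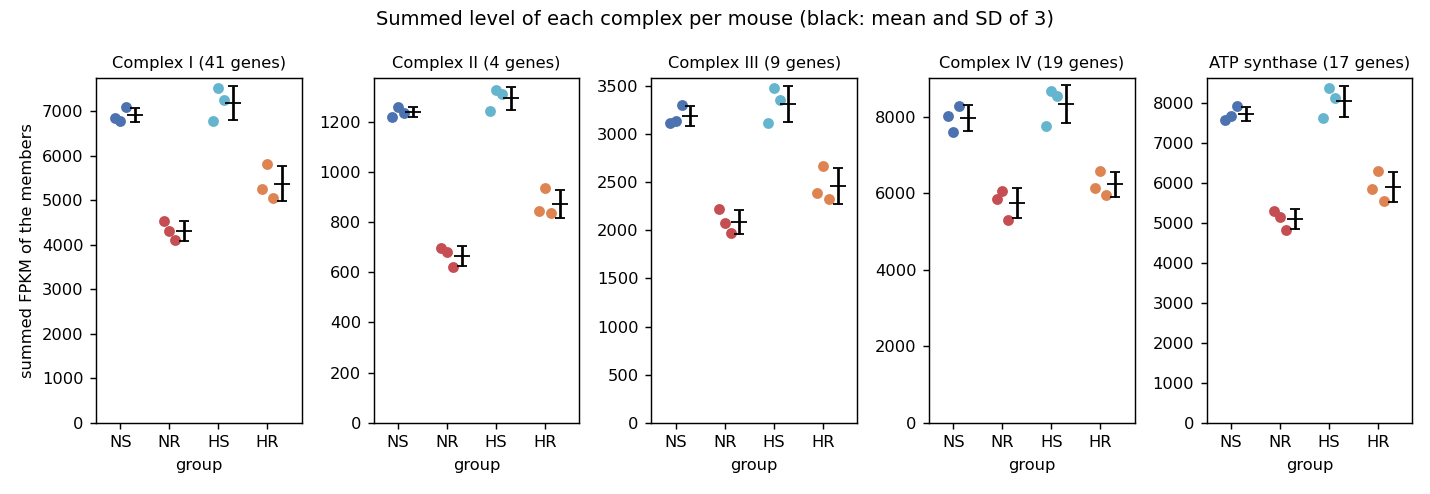
Summed FPKM of all members of each complex (y axis, from 0) in each of the 12 mice, by group (NS normoxic sham, NR normoxic RIRI, HS preconditioned sham, HR preconditioned RIRI); black bars are the mean and SD of 3 mice. In each of the 5 panels the 3 NR points lie below all sham points, and the HR points lie between NR and sham except in complex IV, where HR and NR overlap.

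Summed over members, normoxic RIRI kept 62.39% of the sham FPKM for complex I, 53.81% for complex II, 65.5% for complex III, 72.13% for complex IV and 65.94% for ATP synthase. Over all 90 members the sums were 27024 ± 719 FPKM in normoxic sham and 17903 ± 949 FPKM in normoxic RIRI (SD, n = 3). Sums are dominated by the abundant genes of each complex and were not tested. Across the 87 tested members the NR minus NS change had a Spearman rho of 0.070 with the level in sham, and over 81 members one of -0.204 with transcript length. These correlations are across genes of shared libraries and are given as descriptions.

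Preconditioned RIRI was compared with normoxic RIRI to see how transcripts in injured kidneys differed after preconditioning. Of 87 tested members, 48 were higher in preconditioned RIRI and 0 were lower (limma). Among all genes tested, 24.7% were higher and 17.4% lower. The median log2 fold change of the members was 0.25, against 0.06 for all genes. Groups did not overlap for 55 members, against 47.7% of all genes tested. After median-ratio rescaling of the libraries, 26 members were higher and 0 lower, where all genes gave 19.1% higher and 23.7% lower. The rescaling moved the median of all genes from 0.06 to -0.02, and that of the members to 0.15. In a fit of only these 6 libraries 30 members were higher. The libraries of 1 group were not alike: preconditioned RIRI replicate 2 was the highest of its group for 79 of 87 members, and without it 35 members were called.

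Complex I was higher for 28 of 40 tested genes (median 0.32). The count was 16 after median-ratio rescaling (median 0.22) and 18 in the fit of only these groups. Ndufb10 had the largest log2 fold change of the complex, 0.67 ± 0.11 (limma adjusted p = 0.000576), with 223, 259 and 233 FPKM in preconditioned RIRI. Ndufs1 was at 54.1, 56.6 and 48.6 FPKM, above every normoxic RIRI library and below every sham library (log2 fold change 0.52 ± 0.07, limma adjusted p = 0.000279). Ndufv3 was at 69.0, 78.1 and 63.1 FPKM (0.56 ± 0.09, limma adjusted p = 0.000722), and Ndufv1 at 172, 190 and 192 FPKM (0.18 ± 0.07, limma adjusted p = 0.0432). All 4 genes lay above the normoxic RIRI range. The small change of Ndufv1 lost its call in 10 of 12 fits that each left out a library, the exceptions being normoxic RIRI replicate 2 and preconditioned RIRI replicate 1, and with median-ratio rescaling it was 0.09. Ndufb1, an accessory subunit of the membrane arm, had the lowest value of the complex, -0.06 ± 0.11, with 116, 119 and 87.5 FPKM against 110, 114 and 110 FPKM in normoxic RIRI. Of the core subunits 6 of 7 were higher, and of the accessory subunits 22 of 33.

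All 4 genes of complex II were higher in preconditioned than in normoxic RIRI. Sdha was at 223, 224 and 230 FPKM (log2 fold change 0.36 ± 0.06, limma adjusted p = 0.000689) and Sdhb at 223, 259 and 209 FPKM (0.37 ± 0.09, limma adjusted p = 0.0075). Sdhd was at 188, 227 and 183 FPKM, the largest value of the complex at 0.47 ± 0.10 (limma adjusted p = 0.00293). In none of the 4 did the 2 RIRI groups overlap. The call of Sdhb was lost with median-ratio rescaling (0.27) and in the fit of only these groups. The sum of complex II was 131% of that in normoxic RIRI.

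Complex III was higher for 4 of 9 genes (median 0.24), which were Uqcrfs1, Uqcrc2, Uqcrh and Uqcr11. Uqcr11 had the largest value, 0.33 ± 0.08, and Uqcrfs1 was at 215, 240 and 213 FPKM (0.26 ± 0.07, limma adjusted p = 0.0101). Cyc1, at 222, 265 and 226 FPKM, overlapped normoxic RIRI and was not called (0.24 ± 0.10, limma adjusted p = 0.0671). The same held for Uqcrc1 (0.10 ± 0.09, limma adjusted p = 0.409) and for Uqcrq (0.06 ± 0.08, limma adjusted p = 0.605). Without normoxic RIRI replicate 1, Cyc1 was called (0.32). Median-ratio rescaling ended the 4 calls of the complex, with Uqcr11 at 0.23 and Uqcrfs1 at 0.17.

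Complex IV was higher for 2 of 17 tested genes (median 0.12), Cox5b and Ndufa4l2. Cox5b, a matrix-side subunit, was at 486, 542 and 469 FPKM against 386, 396 and 368 FPKM in normoxic RIRI (0.38 ± 0.07, limma adjusted p = 0.00219). Ndufa4l2 was at 1.36, 3.19 and 2.16 FPKM, with the largest log2 fold change of all members, 0.74 ± 0.20 (limma adjusted p = 0.0105). Cox4i1 was at 801, 862 and 843 FPKM, within the normoxic RIRI range (0.01 ± 0.09, limma adjusted p = 0.919). Cox7a1 was at 8.65, 10.1 and 9.71 FPKM, which overlapped normoxic RIRI (0.18 ± 0.12, limma adjusted p = 0.241). Cox6a1, Cox7a2, Ndufa4 and Cox5a had log2 fold changes of 0.05, 0.04, 0.07 and 0.11, each with an SE of 0.08 or 0.09. Leaving out preconditioned RIRI replicate 3 added calls for Cox6b1 (0.21) and Cox7b (0.34), and leaving out replicate 1 added Cox7a2l (0.28) and Cox6b2 (0.33). Whether complex IV differed from the other complexes was not tested.

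ATP synthase was higher for 10 of 17 genes (median 0.27). The count was 5 after median-ratio rescaling (median 0.17), 5 in the fit of only these groups and 6 without preconditioned RIRI replicate 2. All 4 genes of the peripheral stalk were called, 2 of 5 of F1 and 4 of 8 of the membrane part. Atp5g1 was highest at 0.52 ± 0.09 (limma adjusted p = 0.00103), with 204, 245 and 213 FPKM against 165, 140 and 157 FPKM. Atp5o, the stalk subunit OSCP that holds the head, was at 370, 368 and 325 FPKM against 268, 259 and 253 FPKM (0.45 ± 0.07, limma adjusted p = 0.000553). Atp5a1 was higher at 722, 774 and 736 FPKM (0.30 ± 0.06, limma adjusted p = 0.00227). Atp5b, at 1344, 1413 and 1320 FPKM, lay just above the normoxic RIRI values and was not called (0.10 ± 0.06, limma adjusted p = 0.203). Atp5md, a small membrane subunit, was lowest at -0.05 ± 0.13. Whether alpha and beta differed in their change was not tested.

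**Figure D3:**
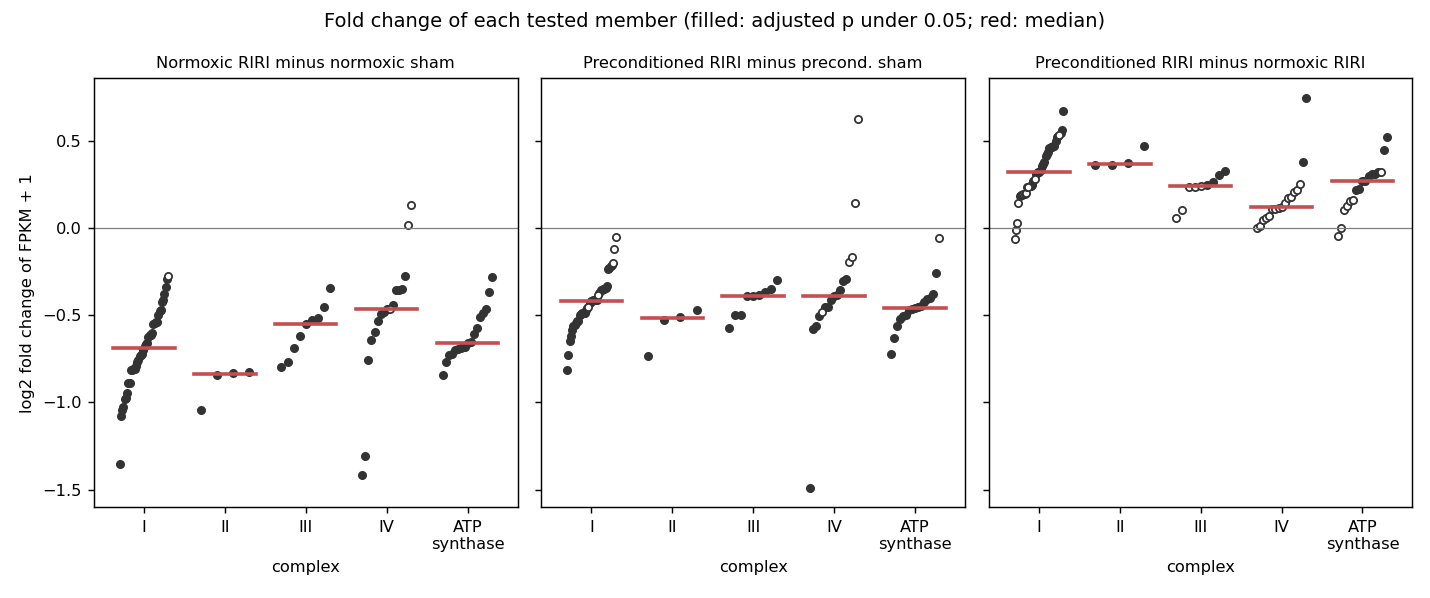
Log2 fold change (FPKM + 1 scale, y axis) of each tested member by complex (x axis) in 3 comparisons; filled points have a limma adjusted p under 0.05 and red bars are medians. In the left panel 83 of 87 points are filled and lower, in the middle panel 76, and in the right panel 48 are filled and higher, of which 2 belong to complex IV.

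Of the 83 members that were lower in normoxic RIRI, 78 had a preconditioned RIRI mean between the means of normoxic RIRI and normoxic sham. Both comparisons share the normoxic RIRI libraries, so this count is not a separate line of evidence. The summed FPKM in preconditioned RIRI was 124.6% of normoxic RIRI for complex I, 131% for complex II, 117.9% for complex III, 108.5% for complex IV and 115.9% for ATP synthase. After median-ratio rescaling the same ratios were 116.3%, 122.1%, 110.1%, 101.1% and 108.2%.

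Preconditioning without injury was examined in the sham kidneys. Of 87 tested members 0 were higher and 0 lower in preconditioned sham (limma), and 3 had an unadjusted p under 0.05. limma voom on recovered reads also called 0. Among all genes tested 0.186% were higher and 0.235% lower (0.113% and 0.413% after median-ratio rescaling). The median log2 fold change of the members was 0.07, against 0.06 for all genes, and 82 of 87 were under 0.2 in size with a median SE of 0.086. The preconditioned mean was the higher of both for 73 of 87 members, and groups did not overlap for 17, against 29.4% of all genes tested. After median-ratio rescaling the median of the members was -0.02.

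The members with the smallest unadjusted p in the sham comparison were Ndufa5 and Cox6a2. Ndufa5, an accessory subunit beside the iron-sulfur chain of complex I, was at 147, 142 and 154 FPKM in preconditioned sham against 126, 125 and 135 FPKM in normoxic sham, without overlap (log2 fold change 0.20 ± 0.07, limma adjusted p = 0.231). Cox6a2 was at 1.20, 0.94 and 1.10 FPKM, below its normoxic sham values (log2 fold change -0.97 ± 0.34, limma adjusted p = 0.245). Both therefore missed the threshold. Ndufs1 was at 80.6, 80.3 and 79.3 FPKM, Sdha at 322, 318 and 324 FPKM and Atp5b at 1754, 1842 and 1790 FPKM in preconditioned sham, which overlapped normoxic sham in each case. Cox4i2, the hypoxia-linked form, was at 1.73, 0.93 and 0.87 FPKM (0.21 ± 0.23, limma adjusted p = 0.737), and Ndufa4l2 at 2.77, 3.39 and 4.17 FPKM (-0.08 ± 0.20, limma adjusted p = 0.904). Preconditioned sham replicate 1 was the lowest of its group for 77 of 87 members.

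**Figure D4:**
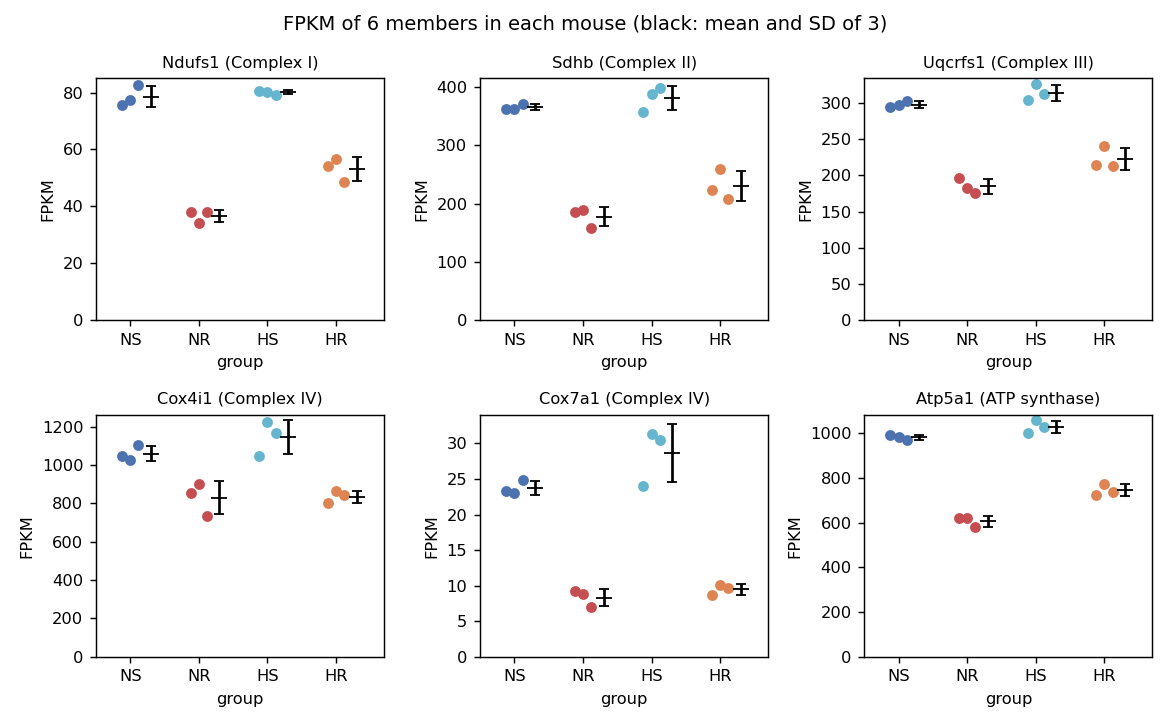
FPKM (y axis, from 0) of 6 members in each of 12 mice by group; black bars are the mean and SD of 3 mice. Ndufs1, Sdhb, Uqcrfs1 and Atp5a1 show preconditioned RIRI (HR) above normoxic RIRI (NR) and below both sham groups, whereas for Cox4i1 and Cox7a1 the 2 RIRI groups overlap.

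The effect of RIRI in preconditioned mice was taken from preconditioned RIRI against preconditioned sham. There 76 of 87 tested members were lower and 0 higher (limma), where 19.4% of all genes were lower and 33% higher (23.8% and 26.1% after median-ratio rescaling). The median log2 fold change was -0.43, against 0.10 for all genes, and 77 members did not overlap, against 63.3% of all genes tested. By complex, 35 of 40 genes of complex I, 4 of 4 of complex II, 9 of 9 of complex III, 12 of 17 of complex IV and 16 of 17 of ATP synthase were lower. The 76 were all among the 83 lowered in normoxic mice. The 2 comparisons share no library in their means, but both use the estimate of the spread pooled over all 4 groups.

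Cox7a1 again had the most negative value, from 23.9, 31.4 and 30.5 FPKM in preconditioned sham to 8.65, 10.1 and 9.71 FPKM (log2 fold change -1.49 ± 0.12, limma adjusted p = 1.95e-06). It kept 33.2% of the sham mean, close to the 35.11% of normoxic mice. Ndufv3 (-0.81 ± 0.09), Sdhb (-0.73 ± 0.09), Ndufs1 (-0.59 ± 0.07), Sdhc (-0.53 ± 0.06) and Sdha (-0.51 ± 0.06) were the other members of smallest adjusted p. Ndufb3, a membrane-arm subunit of complex I, was at 100, 121 and 120 FPKM in preconditioned sham and 107, 113 and 109 FPKM in preconditioned RIRI, with overlap (-0.05 ± 0.09, limma adjusted p = 0.652). Atp5g2 overlapped as well, at 254, 280 and 271 FPKM against 241, 293 and 243 FPKM (-0.06 ± 0.08, limma adjusted p = 0.584). Both had been lower in normoxic RIRI. Per complex, preconditioned RIRI kept 74.78% of the preconditioned sham sum for complex I, 67.49% for complex II, 74.22% for complex III, 74.83% for complex IV and 73.33% for ATP synthase.

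Whether the RIRI effect itself differed between preconditioned and normoxic mice was tested as an interaction, the first effect minus the second, so that a positive value is a smaller fall. It was positive for 78 of 87 members, and 13 passed the test (limma), all positive. Among all genes tested 11.3% were higher and 12.6% lower in this contrast. The share of members called was near that of all genes called higher, and below that of all genes called in either direction. The median of the members was 0.20, against -0.005 for all genes. Complex I held 9 of the 13 genes, complex II 2 and ATP synthase 2, and complexes III and IV held 0 (2 and 3 at an unadjusted p under 0.05). Both ATP synthase calls were lost with median-ratio rescaling, with no filter and with the replicate block. Complex IV gained 1 call with a pseudocount of 0.1 and 1 with median-ratio rescaling. In the main fit its member Ndufa4l2 just missed the threshold (0.82 ± 0.28, limma adjusted p = 0.0504). Ndufs1 had the smallest adjusted p (0.49 ± 0.10, limma adjusted p = 0.00671): RIRI left 46.72% of sham in normoxic and 66.33% in preconditioned mice. Ndufab1 (0.56 ± 0.13, limma adjusted p = 0.00937) was at 49.85% and 74.34%, and Sdha (0.32 ± 0.08, limma adjusted p = 0.0181) at 56.34% and 70.18%. For Cox4i1 the value was -0.10 ± 0.12 (limma adjusted p = 0.589) and for Cox7a1 -0.08 ± 0.17 (limma adjusted p = 0.773). The number of genes that passed rests on single libraries: it was 5 without preconditioned sham replicate 1 or preconditioned RIRI replicate 2, 6 without normoxic sham replicate 2 or 3, 7 without normoxic sham replicate 1, normoxic RIRI replicate 3 or preconditioned sham replicate 3, and 20 without preconditioned RIRI replicate 3.

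Genes that build or serve the complexes were taken from separate lists. Among all genes tested, 30.1% were lower and 41.6% higher in normoxic RIRI. In preconditioned against normoxic RIRI 24.7% were higher and 17.4% lower. Of 15 complex I assembly factors 10 were lower and 0 higher in normoxic RIRI (median -0.46), and 9 were higher and 0 lower in preconditioned against normoxic RIRI. Acad9, which helps assemble the membrane arm, was at 28.2, 28.9 and 26.9 FPKM in normoxic sham, 14.5, 11.5 and 13.5 FPKM in normoxic RIRI and 18.0, 20.6 and 19.4 FPKM in preconditioned RIRI. Its RIRI groups were apart (0.52 ± 0.08, limma adjusted p = 0.00064). Among 33 assembly factors of complexes II to IV, 17 were lower and 4 higher in normoxic RIRI. Sdhaf4, which assists Sdha, was lower (-1.36 ± 0.15), and Uqcc2, a complex III factor, was higher (0.55 ± 0.14). In preconditioned against normoxic RIRI 13 were higher and 1 lower, and after median-ratio rescaling 8 were higher and 1 lower. All 6 tested genes for ATP synthase assembly and inhibition were lower in normoxic RIRI, among them Atpif1, the inhibitor of ATP hydrolysis (-0.76 ± 0.09), and 3 were higher in preconditioned RIRI.

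Of 15 tested genes for electron carriers and their synthesis 8 were lower and 3 higher in normoxic RIRI, and 4 were higher and 3 lower in preconditioned against normoxic RIRI (4 and 4 after median-ratio rescaling). The counts of the second comparison were near the shares of all genes tested, 24.7% higher and 17.4% lower. Coq8a, a kinase-like protein of coenzyme Q synthesis, went from 34.0, 35.4 and 29.6 FPKM to 4.37, 4.86 and 3.74 FPKM (-2.68 ± 0.14, limma adjusted p = 2.5e-08), further than any member. In preconditioned RIRI it was at 12.4, 18.5 and 16.6 FPKM, above normoxic RIRI (1.65 ± 0.14). Coq9, which also serves coenzyme Q synthesis, was lower in normoxic RIRI (-1.41 ± 0.15). Cycs, cytochrome c itself, was not called (-0.11 ± 0.12, limma adjusted p = 0.44). Its RIRI values of 72, 82.8 and 69.3 FPKM overlapped the sham values of 75.3, 78.5 and 87.8 FPKM.

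The 13 subunits encoded in the mitochondrial genome had a median log2 fold change of -0.28 in normoxic RIRI, with 5 lower and 0 higher. Among all genes tested 30.1% were lower and 41.6% higher. Their sum was 60165 to 62562 FPKM in normoxic sham and 49164 to 58687 FPKM in normoxic RIRI. CYTB, the cytochrome b of complex III, was lower (-0.28 ± 0.08, limma adjusted p = 0.0064), whereas COX1, the catalytic subunit of complex IV, was not called (-0.15 ± 0.09, limma adjusted p = 0.17). Quantile normalization gave 8 lower, ended the call of CYTB (-0.07) and turned COX1 (0.25). With no filter the call of CYTB was lost as well (limma adjusted p = 0.623). In preconditioned against normoxic RIRI, COX2 (0.22 ± 0.10, limma adjusted p = 0.097), ND4 (0.13 ± 0.08) and CYTB (0.11 ± 0.08) did not pass the test, nor did the other 10, with 1 of 13 at an unadjusted p under 0.05. limma voom called 0 and quantile normalization 1, and the median went from 0.09 to -0.01 after median-ratio rescaling. Whether nuclear and mitochondrial subunits differed in their change was not tested.

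Among 15 tested transcription regulators of respiratory genes 7 were lower and 2 higher in normoxic RIRI, where 30.1% of all genes were lower and 41.6% higher. In preconditioned against normoxic RIRI 6 were higher and 1 lower (median 0.13), and after median-ratio rescaling 4 were higher and 1 lower (median 0.04). All genes tested gave 24.7% higher and 17.4% lower, and 19.1% and 23.7% after the rescaling. Ppargc1a, the coactivator PGC-1alpha, was at 4.62, 4.62 and 4.65 FPKM in normoxic sham and 1.62, 1.10 and 1.52 FPKM in normoxic RIRI (-1.23 ± 0.10, limma adjusted p = 7.8e-07). Esrra, the estrogen-related receptor alpha, was at 66.7, 66.2 and 65.9 FPKM against 31.0, 19.0 and 23.5 FPKM (-1.43 ± 0.15, limma adjusted p = 5.8e-06). Both were higher in preconditioned than in normoxic RIRI, by 0.75 ± 0.10 and 0.79 ± 0.15. The 2 that were higher were Pprc1 and Nrf1. Pprc1, a further coactivator of the family, was at 1.89, 2.06 and 2.07 FPKM in sham and 10.6, 9.27 and 11.8 FPKM in RIRI (1.94 ± 0.12). For Nrf1 the log2 fold change was 0.41 ± 0.08. Gabpa was not called (0.06 ± 0.08). Of 12 genes linked to hypoxia-inducible factors and mitochondria, Ndufa4l2 among them, 6 were lower and 1, Hif1a, was higher in normoxic RIRI (1.20 ± 0.15).

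**Figure D5:**
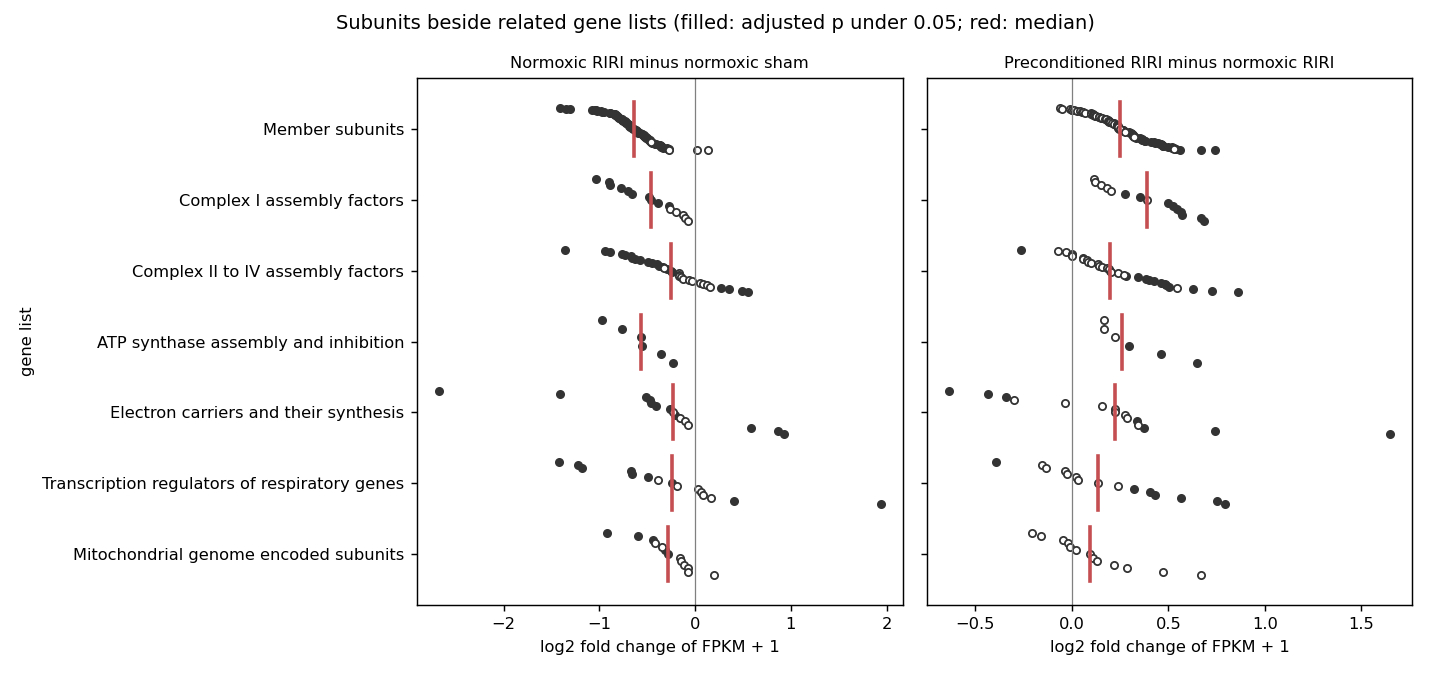
Log2 fold change (x axis) of each tested gene of the members and of 6 related lists (y axis) in normoxic RIRI minus normoxic sham (left) and preconditioned RIRI minus normoxic RIRI (right); filled points have a limma adjusted p under 0.05 and red bars are medians. The median of each list lies below 0 on the left, and Pprc1 is the rightmost filled point of the left panel at 1.94.

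Markers of several cell types were counted too. Among all genes tested, 41.6% were higher and 30.1% lower in normoxic RIRI. In preconditioned against normoxic RIRI 24.7% were higher and 17.4% lower. All 20 proximal tubule markers were lower in normoxic RIRI (median -1.62), 12 were higher in preconditioned than in normoxic RIRI, and 1, Acsm2, was lower in preconditioned than in normoxic sham (-0.44 ± 0.07). That call was lost without any 1 of the 6 sham libraries (-0.41 to -0.47). Their sum was 51243 to 56937 FPKM in normoxic sham, 19239 to 25506 in normoxic RIRI, 35991 to 40703 in preconditioned sham and 17454 to 22547 in preconditioned RIRI, and most of it was Kap. The summed level was thus not higher in preconditioned than in normoxic RIRI, where the ranges overlapped. Of 10 thick ascending limb markers 9 were lower in normoxic RIRI (median -2.54) and 8 were higher in preconditioned than in normoxic RIRI. Their sum was 2332 to 2529 FPKM in normoxic sham, 1189 to 1699 in normoxic RIRI and 1844 to 2198 in preconditioned RIRI. All 7 tested neutrophil markers were higher in normoxic RIRI (median 2.13) and lower in preconditioned than in normoxic RIRI. Their sum was 2.26 to 15.1 FPKM in normoxic sham, 132 to 293 in normoxic RIRI, 1.73 to 4.39 in preconditioned sham and 23.6 to 111 in preconditioned RIRI. No marker of these 3 lists was at 0 in every library. All 10 tubular injury markers were higher in normoxic RIRI (median 4.50), and 8 were lower in preconditioned than in normoxic RIRI. In normoxic RIRI 7 of 10 collecting duct markers and 5 of 8 distal tubule markers were lower and 0 higher. Podocytes had 2 of 6 markers higher and 2 lower, endothelium 4 of 8 higher and 2 lower, and fibroblasts and pericytes 3 of 8 higher and 2 lower. The counts of podocytes, of endothelium and of fibroblasts and pericytes were near the shares of all genes tested. Of 9 monocyte and macrophage markers 5 were higher and 1 lower. Of 4 tested adipose markers 1 was higher and 2 lower, the 1 tested skeletal muscle marker was lower, and 0 of 5 red blood cell markers passed the test. In preconditioned against normoxic RIRI the counts were 5 higher and 0 lower for collecting duct, 2 and 0 for distal tubule, 1 and 0 for podocytes, 1 and 3 for endothelium, 2 and 0 for fibroblasts and pericytes, and 1 and 2 for monocytes and macrophages. The counts of higher markers for distal tubule, for podocytes and for fibroblasts and pericytes were near the share of all genes tested. So was the count of lower markers for monocytes and macrophages. None of the 9 T, NK and B cell markers reached the level needed for testing. Their part in the results of the respiratory genes was not tested.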

How the data were processed

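Kidney RNA of 12 mice was sequenced, per the labels from TRIzol total RNA with a VAHTS Universal V10 kit on a DNBSEQ-T7. The authors deposited 1 table of FPKM for 25553 genes. The submitters' processing notes name mm10, HTSeq and DESeq2 without a version or role, with aligner and annotation not given in the sources used here. Proteomic data were not analysed here. The single values of 1 complex I member are not reported here.

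limma 3.58.1 (R 4.3.3) with a mean-variance trend was fitted to log2(FPKM + 1) of the 12357 genes that reached FPKM 1 in 3 or more of the 12 libraries, as 1 model of 4 group means. Genes were called at a Benjamini-Hochberg adjusted p under 0.05 over all genes tested. A pseudocount of 1 understates the change of low genes. The script was tested on simulated data. Tables and figures were made with Python 3.11.15.

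FPKM steps gave whole reads for 25437 genes (tolerance 1e-06) and not for 116. All 90 members were recovered, and totals differed by at most 0.281% from relative depth. No 2 libraries of 66 pairs shared an equal value above 0.

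The members and lists were chosen with earlier results of these data known. Named were core subunits and isoform pairs whatever their values, the lowest and highest member of each complex for NR minus NS and HR minus NR, and up to 6 members of smallest adjusted p (2 of smallest p where none was called) for the other contrasts. Ndufa12, Ndufb10, Ndufab1, Ndufb3, Atp5o, Ndufs7, Uqcrc2, Uqcrh, Sdhc and Cox5b outside those places, and the genes named in related lists, were chosen after their values were seen. The alternatives were a pseudocount of 0.1, no filter, a floor of FPKM 5, median-ratio rescaling, quantile normalization, only the groups compared, the replicate number as a block, each library left out and, chosen after seeing the data, limma voom on recovered reads.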

Additional observations from a re-analysis of the deposited data

Results flagged for a closer look

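The effect of RIRI differed between preconditioned and normoxic mice, by the interaction term of the limma fit, for 13 of the 87 tested members, where 11.3% of all genes tested were higher and 12.6% lower. That share of members was near that of all genes called higher, and below that of all genes called in either direction. Leaving out 1 library gave 5 to 20 members. All 13 were positive, which means a smaller fall in preconditioned mice, and each value is a difference of log2 fold changes with its SE over 3 mice per group. In complex I the largest were Ndufab1 at 0.56 ± 0.13, Ndufb10 at 0.54 ± 0.15 and Ndufv3 at 0.54 ± 0.13. Ndufs1 was at 0.49 ± 0.10, Ndufb3 at 0.43 ± 0.12 and Ndufs7, which carries the last iron-sulfur cluster before ubiquinone, at 0.41 ± 0.13. Ndufb7 was at 0.395 ± 0.10, Ndufa6 at 0.39 ± 0.12 and Ndufa10 at 0.26 ± 0.08. In complex II the values were 0.32 ± 0.08 for Sdha and 0.32 ± 0.09 for Sdhc. In ATP synthase they were 0.34 ± 0.10 for Atp5c1, the gamma subunit of the rotor, and 0.31 ± 0.10 for Atp5o. The limma adjusted p ranged from 0.00671 for Ndufs1 to 0.045 for Ndufa10.

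Ndufb3 was at 71.85% of sham after RIRI in normoxic mice and at 96.2% in preconditioned mice. For Ndufs7, normoxic sham was at 130, 125 and 129 FPKM, normoxic RIRI at 85.6, 68.4 and 72.8, preconditioned sham at 132, 151 and 135 and preconditioned RIRI at 101, 113 and 113. In the 12 fits that each left out a library, the calls of Ndufs1, Ndufab1, Ndufv3, Ndufb7 and Sdha were lost in 0. Those of Ndufb10 and Ndufb3 were lost in 5, that of Sdhc in 6, those of Ndufs7, Ndufa6, Ndufa10 and Atp5c1 in 9 and that of Atp5o in 10. Median-ratio rescaling ended the calls of Atp5c1, Atp5o, Sdhc, Ndufa6 and Ndufa10, and the replicate block those of Atp5c1, Atp5o, Ndufs7 and Ndufa10. With no filter the calls of Atp5c1, Atp5o, Ndufb10, Ndufb3, Ndufs7 and Ndufa6 were lost, and with quantile normalization those of Sdha and Ndufa10. The call of Ndufb10 was lost without normoxic sham replicate 1 (0.52), normoxic RIRI replicate 3 (0.48), preconditioned sham replicate 1 (0.51) or 3 (0.52), or preconditioned RIRI replicate 2 (0.48), and Sdha was at 0.26 with quantile normalization.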

How the results depend on the processing

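Of 297 counts and medians recomputed under an alternative, 281 stayed within 1.5 times the reported count or within the spread between libraries. Of 1526 recomputed values of named members 1463 kept their direction and side of the threshold, 30 were no longer called, 7 became called and 26 changed sign, all of members that were not called. Median-ratio rescaling gave medians of -0.73 (NR minus NS), 0.15 (HR minus NR), -0.0226 (HS minus NS) and -0.53 (HR minus HS), 26 members higher in HR minus NR, and sums in normoxic RIRI of 58.8% (complex I) and 62.17% (ATP synthase) of sham and in preconditioned sham of 97.71% (complex I), 98.19% (complex II) and 97.99% (ATP synthase) of normoxic sham. A fit of only the groups compared gave 30 higher in HR minus NR, and no filter gave 7 in the interaction. With no filter more genes enter both the mean-variance trend and the adjustment, and their parts were not separated. Leaving out 1 library gave 83 to 84 lower in NR minus NS, 35 to 55 higher in HR minus NR, 70 to 78 lower and 0 to 1 higher in HR minus HS (1 without preconditioned RIRI replicate 1), and 5 to 20 in the interaction. With the replicate number as a block the counts were 83 lower in NR minus NS, 43 higher in HR minus NR, 0 in HS minus NS, 77 lower in HR minus HS and 10 in the interaction. Same-numbered libraries had correlations of their deviations of -0.248 to 0.165 over 18 pairs, 4 of them over 0.1, and 16 of 36 library comparisons were best with their own number, so the numbers only name the samples.

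Sign changes in NR minus NS were those of Cox4i2 at a pseudocount of 0.1 (-0.038), with median-ratio rescaling (-0.0272), with voom (-0.0515) and in leaving out a library (-0.2627 to 0.2241), and of Cox6b2 with quantile normalization (-0.0292). In HR minus NR, Cox4i2 turned at a pseudocount of 0.1 (0.0866) and with voom (0.109). Median-ratio rescaling turned Cox4i1 (-0.0855), Cox6a1 (-0.0445), Cox7a2 (-0.0553), Ndufa4 (-0.0312) and Uqcrq (-0.0412), and quantile normalization turned Cox6a2 (-0.0118). Leaving out a library, the HR minus NR value ranged from -0.2069 to 0.2799 for Cox4i2, -0.0729 to 0.076 for Cox4i1, -0.0357 to 0.1271 for Cox6a1, -0.289 to 0.5367 for Cox6a2, -0.012 to 0.0953 for Cox7a2, -0.142 to 0.0753 for Ndufb1 and -0.1344 to 0.1102 for Atp5md. The cause was not tested. Depth was alike in all libraries.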
